A study of Homo sapiens with 6 samples.

Results

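RNA levels of 10 Rab GTPase genes were described in K562, an established human erythroleukaemia cell line, of 33367 genes summed in all. The members were chosen by name. They are the paralogs RAB8A and RAB8B, RAB5A, RAB5B and RAB5C, and RAB27A and RAB27B, set beside RAB7A, RAB10 and RAB11A. RAB8B, RAB5C and RAB27B drew attention because they were lower in induced than in uninduced CDAN1 shRNA clones in earlier results of these libraries, so the members' values in comparisons of induced CDAN1 shRNA libraries are a description and carry no test. Differences between the clones over both doxycycline states were not the contrast behind the choice and were tested. They draw on the same induced libraries, so their p-values are not independent of the choice. Each of the 6 libraries came from 1 culture taken at day 4. The induced CDAN1 shRNA group held 1 library of clone c1 and 1 of clone c2, both given 1 µg/ml doxycycline to switch on a short hairpin RNA (shRNA) against CDAN1. The uninduced CDAN1 shRNA group held the same 2 clones without doxycycline. Cells with a non-targeting (NT) shRNA gave 1 induced and 1 uninduced library. All cultures were under 2 µg/ml puromycin, and each CDAN1 shRNA line is 1 clone. The clone titled c2 carries a different clone number in the names of its deposited tables, and it is called c2 here after its titles. The labels give neither the hairpin sequence nor the promoter.

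Rab GTPases are small proteins that switch between a GTP-bound state on a membrane and a GDP-bound state in the cytosol, and each marks certain membrane compartments. Guanine nucleotide exchange factors switch them on, GTPase-activating proteins switch them off, and effectors bound by the active form tether, move or fuse vesicles. Paralogs of one subfamily bind many of the same effectors. RAB8A, RAB8B and the related RAB10 carry vesicles from the Golgi and recycling endosomes to the plasma membrane. The RAB5 proteins govern uptake into and fusion of early endosomes, RAB7A acts on late endosomes and lysosomes, and RAB11A on recycling endosomes. RAB27A and RAB27B serve the release of secretory granules, RAB27B among others in platelets. CDAN1 encodes codanin, and inherited mutations in it cause a congenital dyserythropoietic anaemia.

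The 3′ untranslated regions (UTRs) of 4 members held one of the words ACTCCAT and CTCCATA, which stood out in earlier results of these libraries among genes lower on induction of the CDAN1 shRNA. The words were picked after those values were seen, so their presence here is a description with no test. RAB8B, RAB5A, RAB5C and RAB27B had the lowest induced against uninduced levels of the 10 in the CDAN1 shRNA clones. In NT, RAB5C and RAB27B were also lower in the induced library, at 49.1% and 72.3% of the uninduced level. The stretches are shown because of the levels in the clones. They are printed 5′ to 3′ on the transcript's strand from GENCODE 29 transcripts, with the word in capitals and 10 bases on either side:
RAB8B-201, chr15:63266779-63266805, plus strand: agagattataACTCCATtttacaggtt
RAB5A-201, chr3:19984726-19984752, plus strand: gcattgtagtCTCCATAtctgtattac
RAB5C-202, chr17:42125637-42125663, minus strand: accatgatttCTCCATAtaattttgat
RAB27B-201, upstream copy, chr18:54891924-54891950, plus strand: aaaaaattttCTCCATAaagtttgaca
RAB27B-201, downstream copy, chr18:54892659-54892685, plus strand: ctgtgggtctCTCCATAagagttttaa

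Coordinates are on GRCh38. The word began 3170 bases after the stop codon in RAB8B-201, in a UTR of 4163 bases, and 913 bases after it in RAB5A-201, in one of 1352 bases. In RAB5C-202 it began 130 bases after the stop codon, in a UTR of 805 bases. In RAB27B-201, whose UTR has 6103 bases, the copies began 2521 and 3256 bases after the stop codon. RAB5C-202 has 1912 bases in GENCODE 29 and 1771 in the deposited tables, so the quantified transcript was not the same sequence.

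Only the sense strand was searched, both words share the letters CTCCAT, and 1 main coding transcript per gene was used. Of 12369 genes with a searched UTR, 1757 (14.2%) held either word, 10.3% ACTCCAT and 6.42% CTCCATA. The share was 3.35% among UTRs of up to 700 bases and 59.6% among those of 5610 bases or more. It was 10.5% among those of 701 to 1400 bases, the range of RAB5A-201 and RAB5C-202. Among those of 2801 to 5600 bases, the range of RAB8B-201, it was 34.9%. Of the 9 members searched, 4 held a word, and the 9 UTRs had a median of 1930 bases, against 906 bases over all genes. RAB11A was not searched this way because its most abundant transcript has an incomplete 3′ end. Over all 47 coding transcripts of the members, 6 held a word, in 5 members. The member added was RAB5B, in RAB5B-201, which held 5.13% to 12.9% of that gene's TPM and has another length in GENCODE 29 than in the tables.

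The libraries held 28318555 to 32352246 estimated reads. CDAN1, the gene the hairpin targets, had 17.0 CPM (reads relative to the library total, TMM-scaled) in c1 with doxycycline against 37.0 without it. In c2 it had 29.8 CPM with doxycycline and 55.4 without it, and in NT 70.2 CPM with and 62.5 without it. Both induced CDAN1 shRNA libraries lay below all 4 controls, and uninduced c1 also lay well below NT. The erythroid markers of K562 reached 1 TPM in 11 of 11 genes, while MS4A1, a B cell marker, was at 0 in all libraries. Of the lymphocyte markers 2 of 6 reached 1 TPM, and of the fibroblast markers 2 of 4. With 1 culture for each clone and state, p-values rest on the spread among these libraries alone, which may be technical. In bulk RNA, fewer cells of a type and less RNA per cell cannot be told apart.

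All 10 members passed the filter on low counts. Levels can be set side by side in TPM, a unit scaled for transcript length and library total. RAB11A was highest with 159.6 ± 44.9 TPM (SD over the 6 libraries, as for the next values), followed by RAB10 with 131.9 ± 9.02 TPM. RAB7A held 111.5 ± 5.15 TPM and RAB27A 97.2 ± 18.8 TPM. These 4 ranked 1, 3, 4 and 5 among 61 Rab genes by mean TPM. Short transcripts supplied much of the RAB11A TPM. RAB11A-206, of 635 bases, held 38.45% to 46.19% of it from 13.94% to 16.85% of the gene's reads. RAB11A-201, of 4930 bases, held 10.37% to 12.7% of that TPM. In CPM, which is not scaled for length, RAB11A lay below RAB10 in all 6 libraries. RAB8A held 45.4 ± 4.19 TPM, RAB5A 38.4 ± 4.46 TPM and RAB5B 34.4 ± 1.59 TPM. RAB27B held 11.1 ± 7.59 TPM, RAB8B 10.2 ± 3.24 TPM and RAB5C 2.29 ± 1.10 TPM.

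Within this order the ranges of RAB11A and RAB10 overlapped across libraries, as did those of RAB7A and RAB27A. The same held for RAB8A and RAB5A, for RAB5A and RAB5B, and for RAB27B and RAB8B. The RAB10 and RAB7A ranges did not overlap, nor did those of RAB27A and RAB8A, of RAB5B and RAB27B, or of RAB8B and RAB5C. With protein-coding transcripts alone RAB10 ranked 4 among the members, at 85.9 ± 3.61 TPM, because short non-coding transcripts supplied part of its TPM. The RAB5C level is that of RAB5C-202, 1 of 9 transcripts of the gene in GENCODE 29. The other 8 were not analysed here, so the level of the whole gene is not known from these values.

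**Figure D1:**
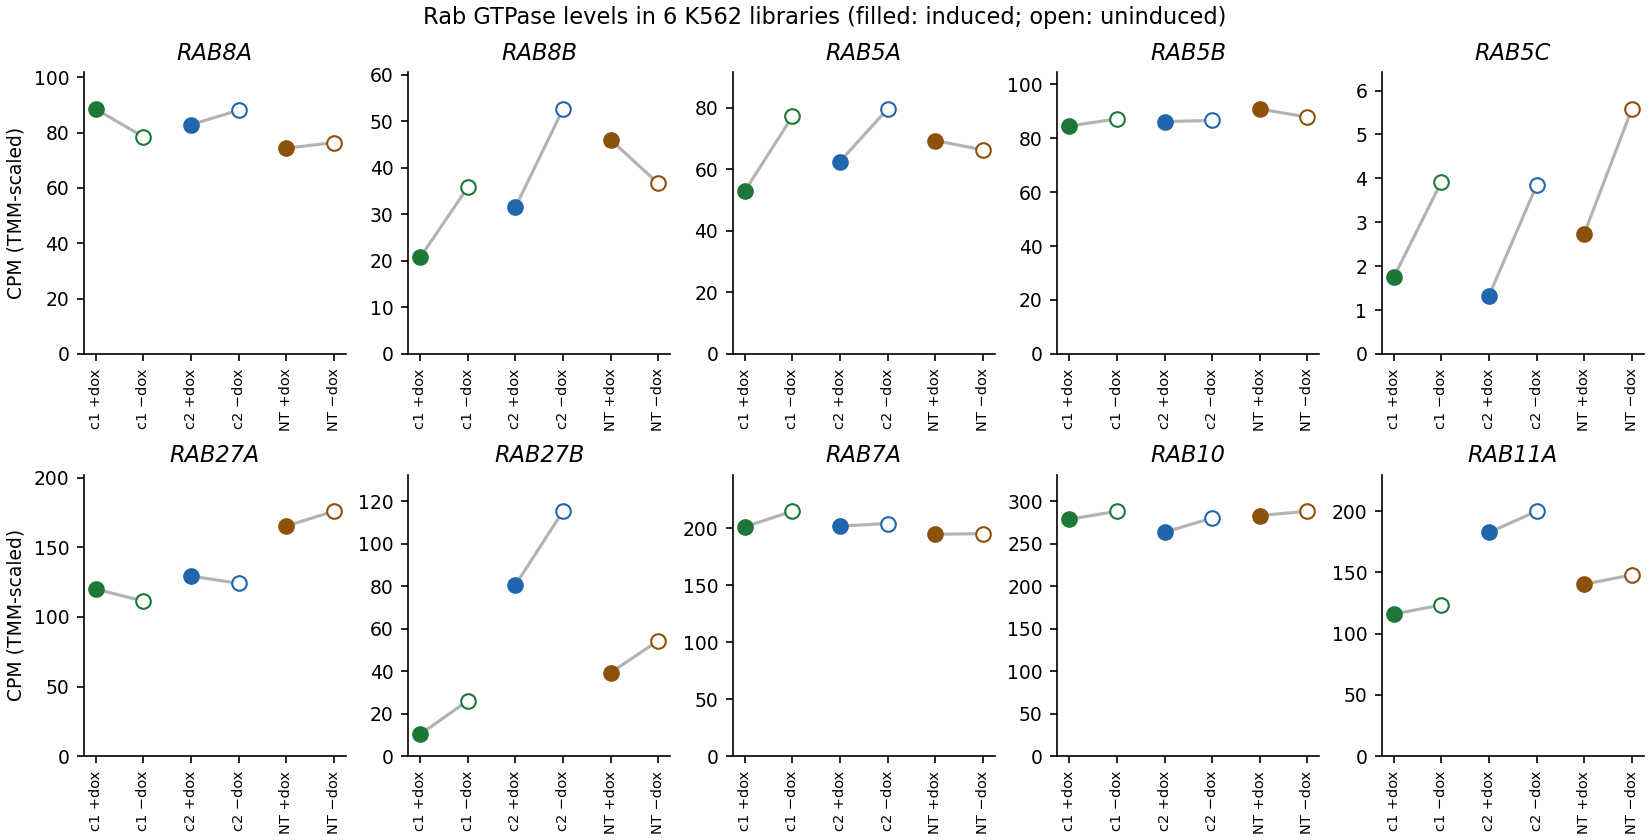
Level of each Rab GTPase gene in CPM (TMM-scaled, linear axis from 0) in the 6 libraries, with filled points for induced and open points for uninduced cultures and a line joining the 2 cultures of c1, c2 and NT. RAB8B, RAB5A and RAB5C lay lower in both induced CDAN1 shRNA cultures than in any other library, as did RAB5B and RAB10 by a small margin. RAB27B differed most between clones, and RAB5B and RAB7A varied little.

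RAB8B (ENSG00000166128, chromosome 15, 63189469 to 63267782, plus strand, GRCh38) was lower in both induced CDAN1 shRNA libraries than in all 4 controls. It had 20.8 CPM in c1 with doxycycline against 35.9 without it, and 31.6 CPM in c2 with doxycycline against 52.7 without it. NT had 46.1 CPM in the induced and 36.7 CPM in the uninduced library. The groups did not overlap, and the NT pair went the other way. The share of all genes with such a separation is not given here. Nothing is therefore read from it for RAB8B, RAB5A, RAB5B, RAB5C or RAB10. After induction c1 stood at 57.9% of its uninduced level (95% counting interval 52.4 to 64%), c2 at 59.9% (55.2 to 65%) and NT at 125.6% (115.4 to 136.8%). These intervals are exact binomial ones and cover counting error only. The mean was 26.2 ± 7.63 CPM over the 2 induced CDAN1 shRNA libraries and 42.8 ± 8.04 CPM over the 4 controls (SD). Its log2 fold change was −0.71 ± 0.23 (SE) there, −0.76 ± 0.30 for induced against uninduced clones and −1.09 ± 0.51 for the response of the clones set against that of NT. With the clone as a replicate block the last 2 were −0.76 ± 0.09 and −1.09 ± 0.15.

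RAB8B-201, the main coding transcript of 4943 bases, carried 95.9% or more of RAB8B reads. In TPM, its induced level came to 56.5% of the uninduced level for c1, 57.5% for c2 and 128.0% for NT. RAB8B-204, of 584 bases, had at most 35.1 estimated reads in a library, yet through its short length reached 34.7% of the gene's TPM in induced c2. On TPM summed over transcripts, the RAB8B response was therefore smaller in the clones, at −0.45 in c1 and −0.38 in c2, and larger in NT, at 0.57, in log2 units.

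RAB8A (ENSG00000167461, chromosome 19, 16111629 to 16134234, plus strand) did not share this pattern. It had 88.6 CPM in c1 with doxycycline against 78.5 without it, and 82.9 CPM in c2 with doxycycline against 88.1 without it. NT had 74.4 CPM induced and 76.4 CPM uninduced. After induction c1 was at 112.8% and c2 at 94.1% of the uninduced level, in opposite directions, and the knockdown and control ranges overlapped. RAB8A-201, its main transcript, stood at 110.0%, 90.8% and 100.1% in c1, c2 and NT, in TPM. RAB8B held 10.4% of the summed RAB8 TPM in c1 with doxycycline against 16.4% without it, and 20.3% in c2 with doxycycline against 23.2% without it. In NT it held 22.6% induced and 16.3% uninduced, so RAB8A was the larger part of the pair in all 6 libraries.

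RAB5A (ENSG00000144566, chromosome 3, 19947079 to 19985175, plus strand) was lower in both induced CDAN1 shRNA libraries than in all 4 controls, by less than RAB8B. It had 52.9 CPM in c1 with doxycycline against 77.2 without it, and 62.6 CPM in c2 with doxycycline against 79.7 without it. NT had 69.4 CPM induced and 66.4 CPM uninduced. Relative to its uninduced library c1 stood at 68.6% (64.2 to 73.2%), c2 at 78.6% (73.9 to 83.5%) and NT at 104.6% (97.9 to 111.7%). The NT interval includes no change. Its mean was 57.8 ± 6.81 CPM in the 2 induced CDAN1 shRNA libraries and 73.2 ± 6.30 CPM in the 4 controls (SD), with a log2 fold change of −0.34 ± 0.12 (SE). For induced against uninduced clones it was −0.44 ± 0.12, and −0.45 ± 0.08 with the replicate block. RAB5A-201, the main coding transcript, showed the same order, with 65.4%, 75.1% and 110.1% in c1, c2 and NT in TPM.

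RAB5B (ENSG00000111540, chromosome 12, 55973913 to 55996683, plus strand) was the steadiest of the trio. It had 84.6 CPM in induced c1 and 86.2 in induced c2, against 87.1 in uninduced c1 and 86.6 in uninduced c2. NT had 90.8 CPM induced and 87.8 CPM uninduced. The induced CDAN1 shRNA values were the lowest of the 6, and all 6 lie within a few CPM of each other. After induction c1 stood at 97% of its uninduced level (91.8 to 102.6%), c2 at 99.5% (94.2 to 105.1%) and NT at 103.4% (97.7 to 109.5%). Among its 11 transcripts 10 were analysed, and RAB5B-210 carried 74.0% to 85.7% of the TPM.

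RAB5C (ENSG00000108774, chromosome 17, 42124976 to 42155044, minus strand) was lower in the induced library of c1, c2 and NT alike, at a depth of only 40 to 148 estimated reads. It had 1.75 CPM in c1 with doxycycline against 3.92 without it, and 1.33 CPM in c2 with doxycycline against 3.84 without it. NT had 2.74 CPM induced and 5.58 CPM uninduced. Both induced CDAN1 shRNA values lay below all 4 controls, the nearest of which was induced NT. Relative to its uninduced library c1 stood at 44.7% (31.6 to 62.5%), c2 at 34.6% (23.5 to 50%) and NT at 49.1% (36.6 to 65.4%). The 3 intervals overlap. They cover counting error only, so they do not test for a difference between the clones and NT. For induced against uninduced clones the log2 fold change was −1.33 ± 0.30 (SE), and −1.34 ± 0.25 with the replicate block. Set against the NT response, the response of the clones had a log2 fold change of −0.31 ± 0.52 (SE), or −0.31 ± 0.41 with the replicate block. Its pseudogenes RAB5CP1 and RAB5CP2 held at most 3 reads in a library.

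Within the analysed TPM of the RAB5 trio, which counts RAB5C from RAB5C-202 alone, RAB5A and RAB5B held about even parts. Their shares of the whole trio are not known, because the other RAB5C transcripts were not analysed. RAB5A held 48.5% in c1 with doxycycline against 52.6% without it, and 51.6% in c2 with doxycycline against 54.9% without it, while NT had 49.1% induced and 49.4% uninduced. RAB5C-202 held 1.88% and 1.35% in induced c1 and c2, against 3.64% and 3.46% without doxycycline. In NT it held 2.53% induced and 5.19% uninduced.

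RAB27B (ENSG00000041353, chromosome 18, 54717860 to 54895516, plus strand) spanned the widest range of the 10 genes in CPM and was lower in the induced library of all 3 lines. It had 10.3 CPM in c1 with doxycycline against 26.1 without it, and 80.6 CPM in c2 with doxycycline against 115.2 without it. NT had 39.3 CPM induced and 54.3 CPM uninduced. The gap between clones was larger than that between doxycycline states, so the knockdown and control ranges overlapped. After induction c1 stood at 39.4% of its uninduced level (34.4 to 45%), c2 at 69.9% (66.4 to 73.7%) and NT at 72.3% (66.7 to 78.3%). The c2 and NT intervals overlap, and the c1 interval lies below both. These intervals cover counting error only, so they do not test for a difference between the lines. The log2 fold change for induced against uninduced clones was −0.64 ± 1.17 (SE), and −0.87 ± 0.15 with the replicate block. Without the block it was −2.79 when induced c2 was left out and 0.82 when uninduced c2 was left out, where the induced and uninduced sides hold unequal numbers of c1 and c2 libraries.

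RAB27A (ENSG00000069974, chromosome 15, 55202966 to 55319113, minus strand) differed little between doxycycline states. It had 120.0 CPM in c1 with doxycycline against 111.4 without it, and 129.4 CPM in c2 with doxycycline against 124.2 without it. NT had 165.3 CPM induced and 176.0 CPM uninduced. The knockdown and control ranges overlapped, with both NT libraries highest. Relative to its uninduced library c1 stood at 107.7% (102.7 to 113%), c2 at 104.2% (99.6 to 109.1%) and NT at 93.9% (90.1 to 97.9%). Exons of RAB27A overlap PIGB on the opposite strand, and PIGB held 296.7 to 419.1 reads. The library strand is not given in the sources used here, so reads in the overlap may have gone to either gene.

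RAB27A was the larger part of its pair throughout. RAB27B held 2.32% of the pair's TPM in c1 with doxycycline against 6.97% without it, and 14.9% in c2 with doxycycline against 20.3% without it. In NT it held 6.58% induced and 8.35% uninduced. Counted in reads instead of TPM the mean share of RAB27B was 26.0% rather than 9.90%. RAB27B-201 has 7281 bases, and RAB27A-212, the RAB27A transcript with most TPM, has 1013. RAB27A-212 held 42.6% to 44.4% of the RAB27A TPM, RAB27A-201 23.9% to 27.7% and RAB27A-202 14.3% to 17.7%. The transcript mix of RAB27A therefore moved by a few percentage points across the 6 libraries.

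**Figure D2:**
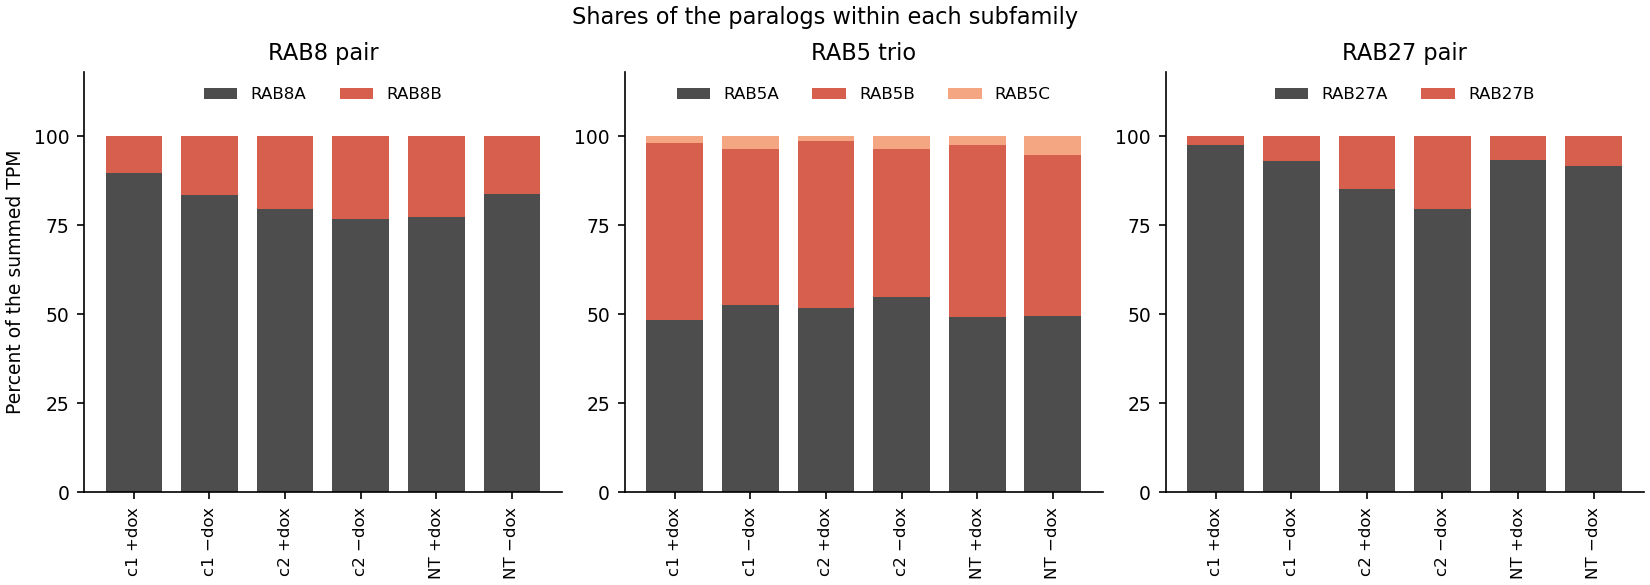
Share of each paralog in the summed TPM of its subfamily (percent, stacked bars) in the 6 libraries. RAB8A and RAB27A made up most of their pairs in all 6 libraries, and RAB27B held 2.32% to 20.3% of its pair. RAB5C, from 1 transcript, held 1.35% to 5.19% of the analysed TPM of the trio. Shares in the trio leave out the RAB5C transcripts that were not analysed.

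RAB7A, RAB10 and RAB11A differed little between doxycycline states. RAB7A (ENSG00000075785, chromosome 3, 128726122 to 128814796, plus strand) had 201.5 CPM in c1 with doxycycline against 215.2 without it, and 202.2 CPM in c2 with doxycycline against 204.3 without it. It had 195 CPM in induced NT and 195.4 CPM in uninduced NT, so the induced c1 and c2 values lay within the range of the controls. RAB10 (ENSG00000084733, chromosome 2, 26034107 to 26137454, plus strand) had 278.9 CPM in c1 with doxycycline against 288.4 without it, and 263.6 CPM in c2 with doxycycline against 280.4 without it. With 283.4 CPM in induced NT and 288.4 CPM in uninduced NT, its induced level was the lower one in all 3 lines, and the induced c1 and c2 values lay below all 4 controls. The induced levels of RAB7A lay between 93.6% and 99.8% of the uninduced ones, and those of RAB10 between 94% and 98.3%.

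RAB11A (ENSG00000103769, chromosome 15, 65726054 to 65891991, plus strand) had 116.0 CPM in c1 with doxycycline against 123.4 without it, and 182.6 CPM in c2 with doxycycline against 199.9 without it. NT had 140.3 CPM induced and 148.1 CPM uninduced. As with RAB27B, c2 was highest, NT intermediate and c1 lowest in either state, and the knockdown and control ranges overlapped. After induction c1 stood at 94% of its uninduced level (89.7 to 98.6%), c2 at 91.3% (88 to 94.8%) and NT at 94.8% (90.6 to 99.1%).

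Single transcripts of RAB10 and RAB11A varied more than the genes. RAB10-204, a retained-intron transcript, had 360.9 estimated reads in c1 with doxycycline against 156.6 without it, and 204.3 in c2 with doxycycline against 270.3 without it. In NT it had 617.2 reads induced and 603.6 uninduced, more than in any c1 or c2 library. RAB10-201, the coding transcript, stood at 94.3%, 93.5% and 100.6% of its uninduced TPM in c1, c2 and NT. RAB11A-205, of 588 bases, had 95 reads in c1 with doxycycline against 0 without it, and 70.4 in c2 with doxycycline against 288.7 without it. In NT it had 0 reads induced and 63.4 uninduced, without a shared direction. RAB11A-201 and RAB11A-203, which differ from it in length, had 94.1% to 98.9% and 84.6% to 108.7% of their uninduced TPM.

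**Figure D3:**
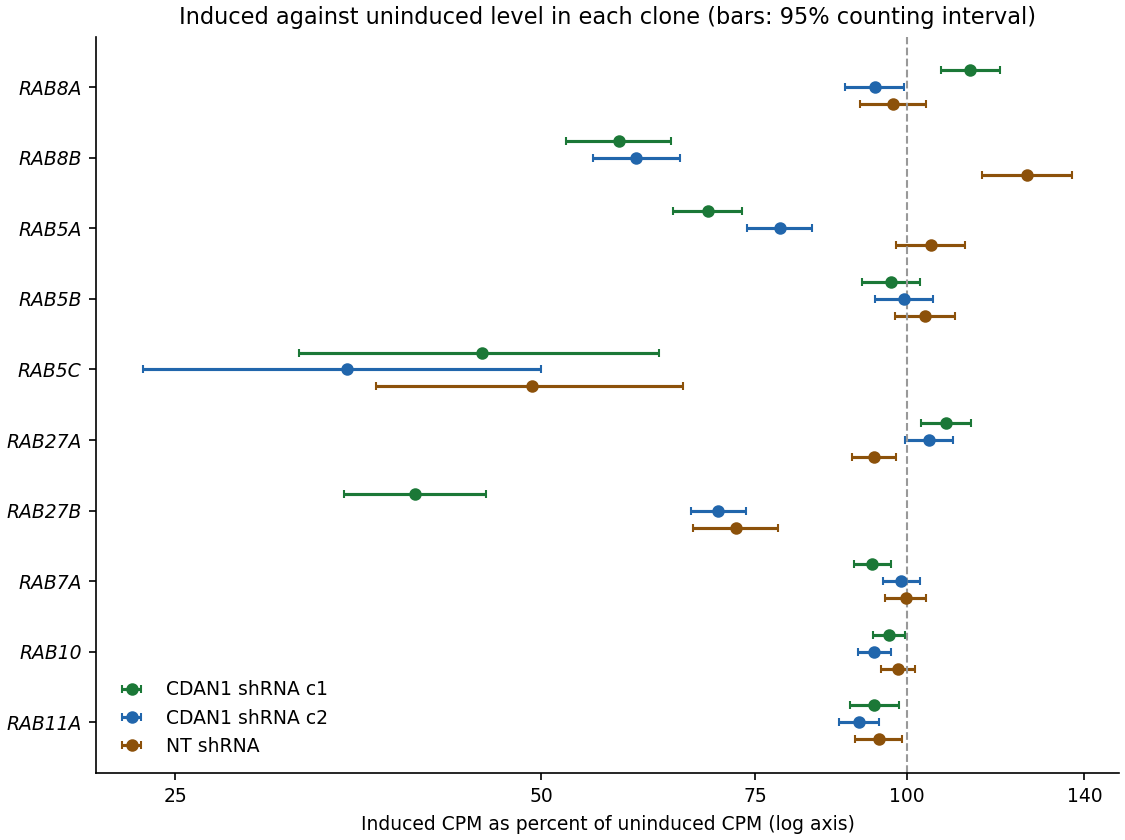
Induced CPM as percent of uninduced CPM (log axis) for each gene in c1, c2 and NT, 1 library against 1, with bars for the 95% exact counting interval and a dashed line at no change. RAB8B and RAB5A lay below the line in c1 and c2 and above it in NT, with the RAB5A interval of NT reaching 100%, while RAB5C and RAB27B lay below it in c1, c2 and NT.

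Set side by side, 8 of the 10 members had a lower level in the induced library of both c1 and c2. Over all 14075 genes tested 31.6% did so, and 11.4% did so with a higher level in induced NT. RAB8B, RAB5A and RAB5B had the second pattern, RAB5B with counting intervals that include no change in all 3 lines. These counts use the comparison that led to the choice of the members, so nothing is read from them. Over all genes the middle 90% of responses ran from −0.63 to 0.60 log2 units in c1, from −0.521 to 0.54 in c2 and from −0.61 to 0.53 in NT. RAB8B lay below this range in c1, at −0.79, and in c2, at −0.74. RAB5C lay below it in all 3 lines, at −1.13, −1.48 and −1.01 in c1, c2 and NT. RAB27B, at −1.34, was below it in c1, whereas its values of −0.515 in c2 and −0.47 in NT were inside it.

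In the fit named by the series' design, induced CDAN1 shRNA libraries against all controls, edgeR called 0 of 14075 genes at an adjusted p under 0.05 (0%), and so none of the members. At an unadjusted p under 0.05 there were 322 genes, and DESeq2 called 22 and limma voom 0. Induced against uninduced clones gave 0 called genes as well (0%), with 207 at an unadjusted p under 0.05, 2 by DESeq2 and 0 by voom. The comparison of the clones' response with that of NT also gave 0 (0%), with 79 at an unadjusted p under 0.05, 5 by DESeq2 and 0 by voom. With the clone as a replicate block, edgeR called 6 genes (0.0426%), 141 genes (1%) and 19 genes (0.135%) in these comparisons. Of the 6, 1 was higher (0.0071%) and 5 lower (0.0355%). Of the 141, 35 were higher (0.249%) and 106 lower (0.753%), and of the 19, 6 were higher (0.0426%) and 13 lower (0.0924%). The members among them were RAB8B, RAB5A, RAB5C and RAB27B, lower in induced than in uninduced clones, and RAB8B in the clones' response against NT. Because these comparisons use the induced CDAN1 shRNA libraries that led to the choice of the genes, the counts are given for completeness only. The comparisons share libraries, so they are not separate observations.

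Levels of the clones over both doxycycline states were tested with edgeR, with 2 libraries for each line and doxycycline as a term. RAB27A was lower in both CDAN1 shRNA clones than in NT, and RAB27B and RAB11A were lower in c1 and higher in c2. RAB5C was called lower in c2 than in NT. The RAB5C and RAB27B calls draw partly on the induced libraries behind the choice of these genes. RAB8A, RAB8B, RAB5A, RAB5B, RAB7A and RAB10 were not called. In c1 against NT, 3 of 10 members were called lower and 0 higher, where 27.8% of all genes were called, 14% lower and 13.8% higher. In c2 against NT, 2 were called lower and 2 higher, where 21.1% of all genes were called, 9.21% lower and 11.8% higher. In c2 against c1, 2 were called higher and 0 lower, where 26.8% of all genes were called, 14.9% higher and 11.9% lower. Calls were thus common over the whole table.

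RAB27B showed the largest differences. It averaged 97.9 ± 24.5 CPM in c2, 18.2 ± 11.2 CPM in c1 and 46.8 ± 10.7 CPM in NT (SD, n = 2 each). Its log2 fold change was 2.51 ± 0.19 (SE) for c2 over c1 (edgeR, adjusted p = 0.000126) and −1.45 ± 0.19 for c1 over NT (edgeR, adjusted p = 0.00188). For c2 over NT it was 1.06 ± 0.18 (edgeR, adjusted p = 0.00603), a call that ended when transcripts without a GENCODE match were kept as features (adjusted p = 0.0791) or when the doxycycline term was dropped (adjusted p = 0.0925). The 10 megakaryocyte and platelet markers differed in the same directions. Their summed level was 138.5 and 170.3 TPM in induced and uninduced c2, against 9.47 and 11.6 TPM in c1 and 25.3 and 31.5 TPM in NT. Of these markers 10 of 10 were called higher in c2 than in c1, 8 higher in c2 than in NT and 6 lower in c1 than in NT, and 9 reached 1 TPM in some library. Other markers also differed. Of the 11 erythroid markers 9 were called lower in c2 than in c1 and 7 lower in c2 than in NT, with median log2 fold changes of −0.33 and −0.26, and in c1 against NT 2 were higher and 3 lower. Of the 4 fibroblast markers 2 were tested, both called higher in c2 than in c1 and in NT and 1 lower in c1 than in NT, at a summed level of 1.19 to 6.04 TPM. Of the 6 lymphocyte markers 2 were tested, with 1 called lower in each of the c2 comparisons. The part of these markers in the RAB27B difference was not tested.

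RAB27A averaged 126.8 ± 3.70 CPM in c2, 115.7 ± 6.10 CPM in c1 and 170.6 ± 7.56 CPM in NT (SD, n = 2 each). It was lower than NT by a log2 fold change of −0.43 ± 0.06 (SE) in c2 (edgeR, adjusted p = 0.00338) and of −0.56 ± 0.06 in c1 (edgeR, adjusted p = 0.00098). The libraries of the 2 clones did not overlap with those of NT. The share of all genes with such a separation is not given here, so nothing is read from it. Between c2 and c1 the difference of 0.13 ± 0.06 was not called (edgeR, adjusted p = 0.171). In c2, RAB27A was thus called below NT and RAB27B above it.

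RAB11A averaged 191.3 ± 12.3 CPM in c2, 119.7 ± 5.22 CPM in c1 and 144.2 ± 5.48 CPM in NT (SD, n = 2 each). Its log2 fold change was 0.68 ± 0.05 (SE) for c2 over c1 (edgeR, adjusted p = 0.000121) and 0.41 ± 0.05 for c2 over NT (edgeR, adjusted p = 0.00168). For c1 over NT it was −0.27 ± 0.05 (edgeR, adjusted p = 0.00824), which passed the threshold no longer when induced NT was left out (adjusted p = 0.0516). RAB5C was lower in c2 than in NT, by a log2 fold change of −0.76 ± 0.22 (edgeR, adjusted p = 0.0465). It had 2.58 ± 1.78 CPM in c2 and 4.16 ± 2.01 CPM in NT (SD, n = 2 each). The call draws partly on the induced c2 library behind the choice of RAB5C, so nothing is read from it. That call ended with DESeq2 (adjusted p = 0.225), with unmatched transcripts kept (0.145), without the doxycycline term (0.464), and when uninduced c1, induced c2, uninduced c2, induced NT or uninduced NT was left out (0.0529 to 0.318). In c1 against NT RAB5C had −0.57 ± 0.22 and was not called (edgeR, adjusted p = 0.0908).

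Among the members that were not called, RAB8B had the widest errors. Its log2 fold change was −0.61 ± 0.25 (SE) for c1 over NT (edgeR, adjusted p = 0.103), −0.04 ± 0.24 for c2 over NT (0.93) and 0.57 ± 0.24 for c2 over c1 (0.121). Without uninduced NT, c1 stood at −1.14 and c2 at −0.56 against NT, and both were called (edgeR, adjusted p = 0.000388 and 0.0124). Without induced NT, c1 over NT was −0.057 and not called (adjusted p = 0.777), and c2 over NT turned to 0.53 (adjusted p = 0.0135). The size for c1 and the sign for c2 against NT therefore rested on which NT library was kept. The c1 difference from NT was also called with no filter on low counts (adjusted p = 0.0211), without induced c2 (0.0321) and without uninduced c2 (0.0331). That of c2 over c1 was called with no filter (edgeR, adjusted p = 0.0289) and without induced c2 (0.0284), induced NT (0.000684) or uninduced NT (0.00134). RAB8A stood at 0.15 ± 0.08 in c1 and 0.18 ± 0.08 in c2 over NT, and without uninduced c1 the first was 0.27 and called (adjusted p = 0.0445), while without induced c1 it was 0.024 (adjusted p = 0.833). RAB5A had log2 fold changes of −0.087 ± 0.13 for c1 over NT, 0.050 ± 0.13 for c2 over NT and 0.14 ± 0.13 for c2 over c1 (edgeR, adjusted p = 0.656, 0.824 and 0.484). RAB5B, RAB7A and RAB10 had log2 fold changes between −0.07 and 0.09 in these 3 comparisons, with standard errors of 0.05 to 0.06.

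**Figure D4:**
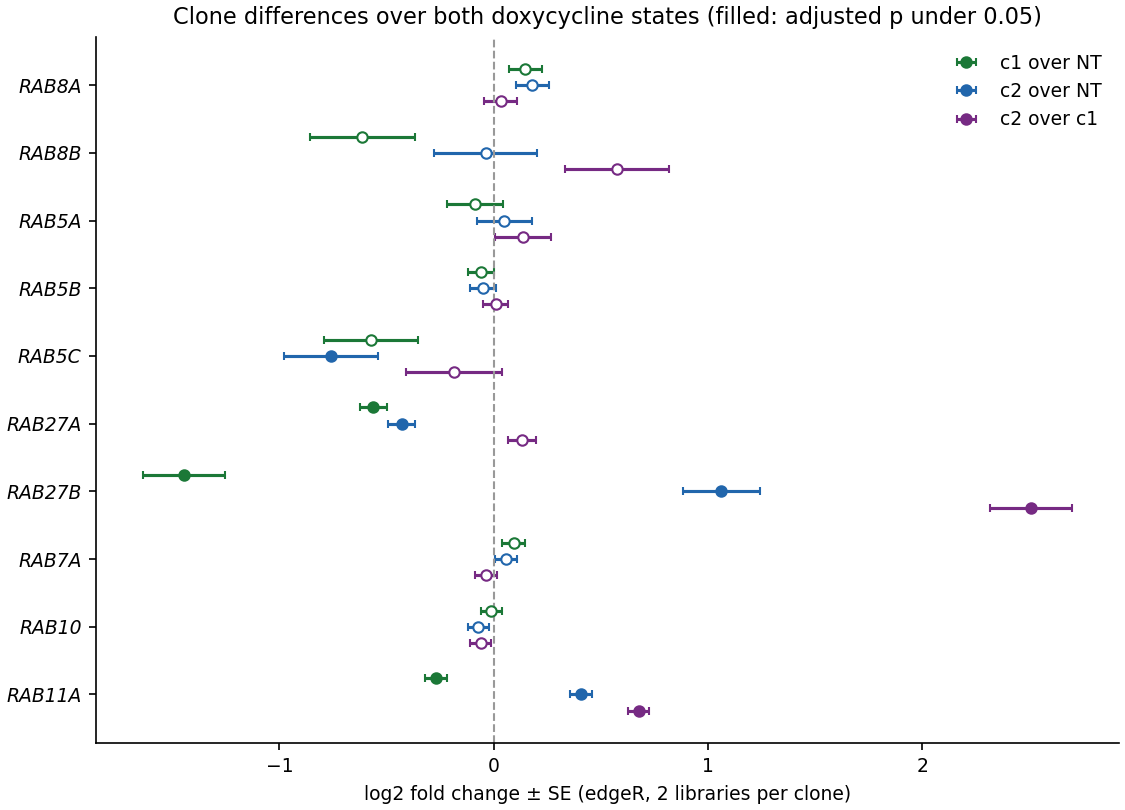
Log2 fold change of each gene between lines over both doxycycline states, with bars for the standard error (edgeR, 2 libraries per line) and filled points for an adjusted p under 0.05. RAB27B ran from −1.45 for c1 over NT to 2.51 for c2 over c1, RAB27A lay below 0 in both clones against NT, and RAB5B, RAB7A and RAB10 lay near 0.

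Of 51 other Rab genes, 39 were tested, and none was called for induced against uninduced clones without or with the block (0% and 1% of all genes). Their median log2 fold change there was 0.067, against −0.006 over all genes. In c1 against NT 10 were higher and 4 lower, in c2 against NT 7 and 1, and in c2 against c1 4 and 6. Over all genes 27.8%, 21.1% and 26.8% were called in these comparisons. By direction, 13.8% of all genes were higher and 14% lower in c1 against NT, and 11.8% and 9.21% in c2 against NT. In c2 against c1 these shares were 14.9% and 11.9%. Higher calls over NT were thus more frequent among these Rabs than over all genes, and lower calls less frequent. That difference was not tested, and nothing is read from it. RAB3D, an exocytic Rab, rose in c1 over NT by 1.11 ± 0.23 (log2, SE) and was lower in c2 than in c1, at −1.44 ± 0.23 (edgeR, adjusted p = 0.0111 and 0.00371). RAB26 was lower in c1 than in NT, at −1.53 ± 0.31 (edgeR, adjusted p = 0.01). RAB37 was called in c2 against both, from levels under 1 CPM in all libraries.

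For the partner lists the shares called over all genes were the same 27.8% in c1 against NT, 21.1% in c2 against NT and 26.8% in c2 against c1, and nothing is called particular to a list from its counts. Of 12 partners of RAB27, 10 were tested, with 0 higher and 4 lower in c1 against NT, 1 higher and 4 lower in c2 against NT, and 3 higher and 1 lower in c2 against c1. Their median log2 fold changes were −0.26, −0.25 and 0.20, against −0.002, −0.001 and −0.011 over all genes. UNC13D, the RAB27A effector that primes lytic granules for release, had 184.6 and 172.5 CPM in induced and uninduced c1, 247.0 and 251.4 CPM in c2, and 358.3 and 344.6 CPM in NT. Like RAB27A it was lower than NT in both clones, by a log2 fold change of −0.98 ± 0.05 (SE) in c1 and −0.50 ± 0.05 in c2 (edgeR, adjusted p = 4.11e-05 and 0.000822). The synaptotagmin-like effector SYTL5 rose in c2 over NT by 1.48 ± 0.16, while SYTL1, another of that family, fell by 1.04 ± 0.13 (edgeR, adjusted p = 0.000913 and 0.00188). TBC1D10B, which can inactivate RAB27A, had 77.5 CPM in c1 with doxycycline against 99.5 without it, and 74.0 CPM in c2 with doxycycline against 92.7 without it. In NT it had 105.7 CPM induced and 113.2 CPM uninduced, and it was not called for induced against uninduced clones (edgeR with the block, adjusted p = 0.0542).

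Counted in either direction, the RAB5 list had calls at about the rate of all genes. Of 22 regulators and effectors of RAB5, 21 were tested, with 6 higher and 1 lower in c1 against NT, 3 and 1 in c2 against NT, and 2 and 2 in c2 against c1. RIN3, an exchange factor for RAB5, had 6.90 and 7.75 CPM in induced and uninduced c2, 0.165 and 0.353 CPM in c1, and 1.91 and 2.22 CPM in NT. It was the most divergent of the list, at 4.82 ± 0.30 for c2 over c1 (log2, SE; edgeR, adjusted p = 4.11e-05). VPS45, which acts in fusion of vesicles with early endosomes, had 15.8 to 30.8 CPM in the 4 c1 and c2 libraries, against 3.26 and 4.03 CPM in induced and uninduced NT. It rose by 2.59 ± 0.34 in c1 and by 2.80 ± 0.34 in c2 over NT (edgeR, adjusted p = 0.00188 and 0.0015). APPL1, a RAB5 effector on early endosomes, rose by 0.71 ± 0.08 in c1 over NT (edgeR, adjusted p = 0.00118). PIK3R4, a subunit of the lipid kinase complex of early endosomes, had log2 responses of −0.44 for c1, −0.14 for c2 and 0.13 for NT, and was not called.

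All 18 regulators and effectors of RAB8 and RAB10 were tested, with 4 higher and 6 lower in c1 against NT, 4 and 3 in c2 against NT, and 5 and 4 in c2 against c1. RAB3IP, known as Rabin8, the exchange factor for RAB8, rose by 0.74 ± 0.12 (log2, SE) in c1 and by 0.98 ± 0.12 in c2 over NT (edgeR, adjusted p = 0.00439 and 0.0015). It had 14.3 and 12.4 CPM in induced and uninduced c1, 16.3 and 15.2 CPM in c2, and 8.55 and 7.46 CPM in NT. PPM1H, a phosphatase that removes the phosphate LRRK2 places on RAB8A and RAB10, rose by 0.75 ± 0.12 in c1 over NT (edgeR, adjusted p = 0.00392). LRRK2 itself stayed at 0.15 to 1.16 CPM and was higher in c1 than in NT, at 1.96 ± 0.54 (edgeR, adjusted p = 0.0314). RAB3IL1, an exchange factor related to RAB3IP, was lower than NT in c1, at −0.27 ± 0.07, and in c2, at −0.54 ± 0.07 (edgeR, adjusted p = 0.0256 and 0.00177).

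Of 15 RAB7 partners 14 were tested, with 1 higher and 2 lower in c1 against NT, 1 and 1 in c2 against NT, and 1 and 2 in c2 against c1. VPS39, a subunit of the HOPS tether of late endosomes, was lower in c1 than in NT, at −0.44 ± 0.07 (log2, SE; edgeR, adjusted p = 0.00308), and TBC1D2, a GTPase-activating protein for RAB7, was lower in c2 than in NT, at −0.70 ± 0.18 (edgeR, adjusted p = 0.0304). All 10 RAB11 partners were tested, with 3 higher and 1 lower in c1 against NT and 2 and 2 in both c2 comparisons. MYO5A, a motor that binds RAB11, rose in c2 over NT by 1.17 ± 0.24 (edgeR, adjusted p = 0.013), at 1.51 to 3.62 CPM. The effector RAB11FIP4 was lower in c2 than in NT, at −0.70 ± 0.16 (edgeR, adjusted p = 0.0191).

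The 7 genes of Rab prenylation and recycling gave 0 calls in c1 against NT, 1 higher and 1 lower in c2 against NT, and 1 higher and 2 lower in c2 against c1. GDI2, which draws inactive Rabs off membranes, rose in c2 over NT by 0.39 ± 0.05 (log2, SE) and RABGGTB, the catalytic subunit that attaches their lipid anchor, fell by 0.28 ± 0.06 (edgeR, adjusted p = 0.00168 and 0.0156). CHM, the Rab escort protein, was lower in c2 than in c1, at −0.67 ± 0.17 (edgeR, adjusted p = 0.0245). For induced against uninduced clones, no gene of these 6 partner lists was called by edgeR without or with the block (0% and 1% of all genes).

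Likeness of pattern was measured as Pearson's r of log2 CPM over the 6 libraries, a pair from each line, among 14075 genes. It is given as a description with no p. The genes named were the highest among all these genes over only 6 libraries, so their high r is partly due to that selection. Nearest to RAB8B were DTX2 (0.99), UBE2J1 (0.99), ZNF436 (0.98), VDR (0.98) and ZNF487 (0.98). UBE2J1 is a ubiquitin-conjugating enzyme of the endoplasmic reticulum and VDR the vitamin D receptor. UBE2J1 had 75.1 CPM in c1 with doxycycline against 84.8 without it, 81.0 CPM in c2 with doxycycline against 91.8 without it, and 89.9 CPM in induced NT against 86.5 in uninduced NT, so the same order came with a smaller range than that of RAB8B. Nearest to RAB5C were PTPRR, MRPS9, SCG3, MS4A10 and CGGBP1, all with r of 0.97 or 0.98. MS4A10 stayed at 0.265 to 0.528 CPM, close to 0. SCG3, a secretory granule protein, had 89.1 CPM in c1 with doxycycline against 157 without it, 82.9 CPM in c2 with doxycycline against 134 without it, and 132 CPM in induced NT against 186 in uninduced NT.

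Nearest to RAB27B were TNS1, GFAP, AC000120.2, SENP8 and ZNF280D, with r of 0.99 or 1.00. GFAP stayed at 0.0992 to 0.514 CPM, close to 0. TNS1, a focal adhesion protein, had 23.6 and 25.8 CPM in induced and uninduced c2, 14.6 and 18.8 CPM in c1, and 19.6 and 21.6 CPM in NT. Among the members themselves, RAB11A was the one most like RAB27B (r = 0.95) and RAB5A the one most like RAB8B (r = 0.88). RAB10 was the one most like RAB5C (r = 0.86). Between paralogs r was −0.35 for RAB8A and RAB8B, 0.25 for RAB27A and RAB27B, 0.63 for RAB5A and RAB5C, and 0.39 for RAB5B and RAB5C.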

How the data were processed

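RNA sequencing libraries were made from total RNA of 6 K562 cultures, grouped by their titles. Transcript abundance came from Salmon 1.5.2 with GRCh37 (hg19), per the submitters' processing notes, with annotation, trimming and strandedness not given in the sources used here. The deposited tables hold an estimated count of reads and a TPM value (scaled for length and library total) per transcript, per the file headers.

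Of 167268 transcripts, 151039 (90.3%) matched GENCODE 29 by identifier. Summing their estimated counts gave 33367 genes, and sums were rounded to whole numbers. Unmatched transcripts held 6.23% to 6.5% of a library's reads and stayed out of library sizes and tests. GENCODE 29 is an annotation of GRCh38, another build than that of the authors, and gave names, GRCh38 coordinates and sequences. Depth was 28318555 to 32352246 estimated reads, and counting intervals (95%) cover counting error only. CPM used TMM factors, and log2 values a prior count of 2. A response is induced minus uninduced log2 CPM of 1 line and has no test.

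Tests used edgeR 4.0.16 in R 4.3.3 (filterByExpr with a minimum count of 10, 14075 genes, quasi-likelihood, two-sided, Benjamini-Hochberg over all genes, threshold 0.05). They were also run on simulated counts. Unlike the real libraries, these held no difference between lines beyond the genes set to change, so that run does not cover the spread between lines. DESeq2 1.42.0, limma 3.58.1 voom, other scaling, no filter, unmatched transcripts kept, no doxycycline term, the clone as a replicate block and leaving out each library were alternatives. The line pairs the libraries: deviations of induced and uninduced libraries from their means correlated within c1 (r = 0.679), c2 (r = 0.741) and NT (r = 0.608), though with so few libraries centring shapes these values.

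The members, gene lists and words were chosen with earlier results of these data known. Named genes are the 10 members and, per list, up to 3 called genes with the largest log2 fold change between lines, up to 2 genes with mean CPM of at least 5 and the largest difference between induced and uninduced clones, and the 5 genes most like RAB8B, RAB5C and RAB27B. RAB3IL1 falls under the second part of that rule.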

Additional observations from a re-analysis of the deposited data

Results flagged for a closer look

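For 4 members the NT pair moved opposite to both CDAN1 shRNA clones, with 1 library against 1 in each line. Over all genes 11.4% were lower in both induced clones and higher in induced NT. The share with the reverse pattern, that of RAB27A, is not given here, so nothing is read from the count. The response of the clones set against that of NT was fitted over all genes. It uses the induced CDAN1 shRNA libraries that led to the choice of members, so it is a description here. With the replicate block its log2 fold change was −1.09 ± 0.15 (SE) for RAB8B, −0.51 ± 0.14 for RAB5A, −0.074 ± 0.121 for RAB5B and 0.17 ± 0.11 for RAB27A. Of these, edgeR called RAB8B with the block and none without it. The log2 response of RAB8B was −0.79 in c1 and −0.74 in c2, against 0.33 in NT. That of RAB5A was −0.54 in c1 and −0.35 in c2, against 0.064 in NT. RAB5B had −0.043 in c1 and −0.007 in c2, against 0.048 in NT, all within counting error of no change. RAB27A had 0.11 in c1 and 0.06 in c2, against −0.09 in NT, and its c2 counting interval includes no change.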

How the results depend on the processing

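Counts of called genes depended on the tool and the replicate block. For induced CDAN1 shRNA libraries against all controls the 0 calls became 22 with DESeq2 and 6 with the clone as a replicate block. For induced against uninduced clones the 0 became 2 and 141, and for the response of the clones against that of NT it became 5 and 19. Leaving out single libraries kept these 3 counts between 0 and 0. With unmatched transcripts kept, 2021 genes were called in c1 against NT, 1164 in c2 against NT and 1825 in c2 against c1, in place of 3918, 2964 and 3766. Leaving out single libraries gave 2224 to 3654, 1421 to 3496 and 1973 to 3953. The cause was not tested. In reads instead of TPM, the mean share was 31% for RAB8B, 42.8% for RAB5A and 26.0% for RAB27B, and with coding transcripts alone 47.3% for RAB5A.

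Some log2 fold changes near 0 reversed. RAB8B in c2 over NT stood at 0.032 with voom and 0.025 without the doxycycline term, and between −0.56 and 0.53 when single libraries were left out. On leaving out single libraries RAB5A ran from −0.34 to 0.16 for c1 over NT, from −0.20 to 0.31 for c2 over NT and from −0.054 to 0.34 for c2 over c1. For c2 over c1 RAB8A ran from −0.089 to 0.15, RAB5B from −0.023 to 0.036, RAB5C from −0.43 to 0.022 and RAB7A from −0.078 to 0.002. The call for RAB27A held under all alternatives in both clones against NT, as did those for RAB27B in c1 against NT and c2 against c1 and for RAB11A in both c2 comparisons. RAB5C, at 40 to 148 reads, is limited most by depth.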
